A study of Homo sapiens with 6 samples.

Results

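The 39 genes examined here, 20 integrin chains and 19 components of focal adhesions, act in cell-matrix adhesion and were followed in clones of MDA-MB-231 cells with reduced WASF3. For each gene the probe set with the highest average signal on the 6 arrays was read. By that rule 37 of the 39 had a value, of 19775 genes in the whole table. The probe sets of ITGB6 are each annotated to a second gene as well and were not used, and CRK was not analysed here.

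MDA-MB-231 is an established human cell line of triple-negative breast cancer with a mesenchymal-like, invasive phenotype. The knockdown group held 3 single clones of cells at passage 4 that had been infected with a pSM2 retroviral vector for 1 of 2 short hairpin RNAs directed at WASF3. The control group held 3 single clones that carried the empty vector or a hairpin against GFP. All clones of both groups were selected with puromycin, and the labels do not say which hairpin or vector a given clone carried. Each clone was read on 1 array, so p-values measure the spread between single clones, and differences that a clone had before infection cannot be told apart from those that came with the hairpin.

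Integrins are heterodimers of an alpha and a beta chain that bind matrix proteins outside the cell and, through the beta tail, the actin cytoskeleton inside it. Talin and the kindlins switch them to the binding state, vinculin and tensins tie them to actin, and the kinases FAK and SRC with the adaptors paxillin, p130Cas and CRK pass the signal on. The ILK, PINCH and parvin proteins form a scaffold at the same sites. WASF3 drives branched actin growth through the ARP2/3 complex, and integrin adhesions form behind the membrane protrusions that such growth produces.

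Levels are log2 RMA signals, and a difference is knockdown minus control on that scale, with the standard error (SE) and 95% interval of the limma fit. A gene was said to rise or fall when its p-value from that fit, adjusted by the Benjamini-Hochberg method over all probe sets, was under 0.05. WASF3 itself read 5.40, 5.80 and 4.52 in knockdown clones 1, 2 and 3, against 6.77, 6.42 and 6.59 in control clones 1, 2 and 3. Every knockdown clone lay below every control clone, but the difference of −1.35 (SE 0.29) missed the threshold (adjusted p = 0.102 in limma). The gene has 1 probe set. Its 3 knockdown readings lay under 6.16, the background level explained below, and the control mean of 6.59 was not far above it. Markers of the line (VIM, CD44, AXL, CAV1, MSN, S100A4 and EGFR) had mean levels of 10.6 to 14.2, and 0 of these 7 passed in limma. S100A4 nonetheless read 12.63, 10.52 and 10.44 in knockdown clones, against 12.76, 12.81 and 12.77 in control clones (−1.58, adjusted p = 0.242), and EGFR was at 220% of the control signal in knockdown clone 3. ESR1 and PGR, the hormone receptors that triple-negative cells lack, averaged 5.73 and 3.32 in knockdown and 5.89 and 3.31 in control clones. ESR1 and PGR are 2 of 10 luminal breast markers with mean levels from 3.18 to 12.8 (median 7.48), so others were far higher. The summed level of these 10 was 71.9 to 79.0 in knockdown and 75.4 to 76.7 in control clones. In limma 0 of them passed, and 4 were lower at an unadjusted p under 0.05. Leukocyte markers averaged between 3.23 and 5.54 and fibroblast markers between 3.16 and 5.57. None of these 9 leukocyte and 5 fibroblast genes passed in limma, and 0 had an unadjusted p under 0.05. Of 5 endothelial and 4 platelet markers 0 passed in limma either, while CDH5 (at 3.25 in knockdown and 3.00 in control clones) and KDR (6.16 and 5.73) were higher and PF4 (6.64 and 7.13) lower at an unadjusted p under 0.05. CDH5 lay under the background level in both groups. The other 3 endothelial genes had a lower mean in knockdown clones. Among them PECAM1 gave the largest difference of that list, −0.46 (7.16 and 7.62, adjusted p = 0.556 in limma). The mean difference between 3′ and 5′ control probe sets of GAPDH and ACTB, a sign of RNA quality, was 2.11, 1.62 and 1.66 in knockdown clones, against 1.13, 1.47 and 1.26 in control clones. It was higher in every knockdown clone (exact two-sided permutation p = 0.1, the smallest that 3 against 3 allows), so it cannot be told apart from the knockdown. Fits with the index as a covariate are given below. They cannot decide its part in the results, because index and group go together, and 1 of all 19775 genes passed in limma with it.

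The fibronectin receptor chain ITGA5 and the vitronectin receptor chain ITGB5 fell in the knockdown clones, and no member rose. In limma 2 of 37 members were called lower, beside 0.42% of all genes, and 0 were called higher, beside 0.319% of all genes. At an unadjusted p under 0.05 there were 6 lower and 2 higher members (FERMT2 and PTK2), beside 7.67% and 9.11% of all genes. The groups did not overlap in 6 members that were lower and 3 that were higher in knockdown clones. The shares of members without overlap were close to those of all genes, at 12.6% lower and 12.1% higher. The median difference over the members was −0.10, with −0.01 over all genes, and 26 of the 37 had a lower mean in knockdown clones. Members whose mean stayed at or below a level of 6.16 in both groups, the 90th percentile of 24 genes of unrelated tissues such as liver, muscle and brain, are described as not shown above background. There were 13 of these.

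**Figure D1:**
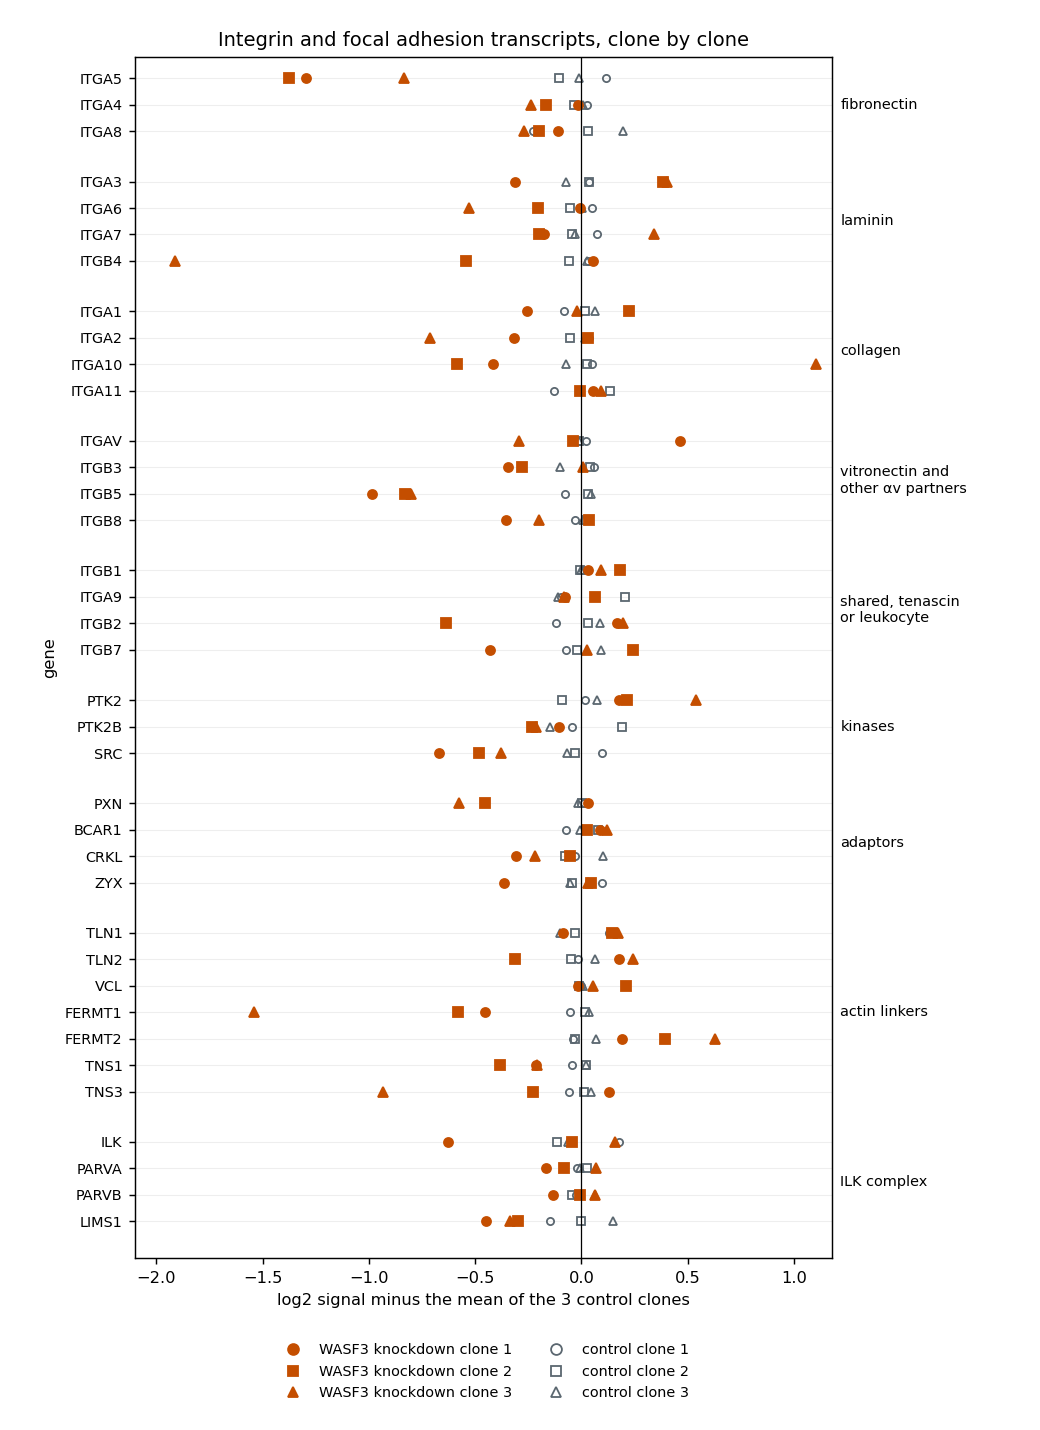
Each row is 1 member, grouped by role, and each point is 1 clone, as log2 signal minus the mean of the 3 control clones (filled orange: knockdown; open grey: control). ITGA5 and ITGB5 are the rows in which all 3 knockdown clones lie at least 0.80 below the control mean.

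ITGA5 pairs with ITGB1 to form the classical fibronectin receptor. It read 8.20, 8.12 and 8.66 in knockdown clones 1, 2 and 3, against 9.61, 9.39 and 9.48 in control clones. All 3 knockdown clones were low, clone 3 the least so, and the groups were far from overlapping. The mean was 8.32 ± 0.29 in knockdown and 9.49 ± 0.11 in control clones (SD, n = 3 each), a difference of −1.17 (SE 0.15, adjusted p = 0.0368 in limma, 95% interval −1.53 to −0.81). That left 44.4% of the control signal, and 40.7%, 38.5% and 56.0% in clones 1, 2 and 3. The gene has 1 probe set, so no second reading on the array was available. ITGA5 no longer passed when any 1 control clone was left out (adjusted p from 0.230 to 0.274), nor without knockdown clone 2 (adjusted p = 0.0791), and the difference stayed between −1.34 and −1.07 when single clones were left out. With the RNA quality index in the fit it was −0.96 (adjusted p = 0.253).

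ITGB5 pairs with ITGAV to form a vitronectin receptor. Its brightest probe set read 10.79, 10.94 and 10.97 in knockdown clones 1, 2 and 3, against 11.70, 11.81 and 11.82 in control clones. The knockdown clones were alike, within 0.18 of each other, and all were below the control clones. The mean was 10.9 ± 0.10 in knockdown and 11.8 ± 0.07 in control clones (SD, n = 3 each), a difference of −0.87 (SE 0.09, adjusted p = 0.0310 in limma, 95% interval −1.09 to −0.66), or 54.6% of the control signal. The next 2 probe sets of ITGB5 in order of signal gave −0.85 (adjusted p = 0.0362) and −0.63 (adjusted p = 0.0374), and the dimmest, with a knockdown mean of 5.07 and a control mean of 5.28, gave −0.21 (adjusted p = 0.594). Thus 3 of its 4 probe sets passed, where 0.308% of all probe sets were called lower. They read the same gene in the same clones and are not separate tests, so that share does not measure their agreement. ITGB5 missed the threshold without any 1 of the control clones (adjusted p from 0.230 to 0.258) and without knockdown clone 2 (adjusted p = 0.0700), with differences between −0.91 and −0.82 over the fits that left out a clone. With the RNA quality index in the fit it was −0.78 (adjusted p = 0.202).

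The sequences before the start sites of both genes are shown because these 2 chains are the members that fell together. They are RefSeq windows of 300 bases on GRCh38.p14, 250 before the start and 50 from it on. ITGA5 lies on the minus strand of chromosome 12 (window chr12:54419217-54419516) and ITGB5 on the minus strand of chromosome 3 (window chr3:124887316-124887615, the one of 3 ITGB5 windows that holds a motif searched here). Capitals mark the motifs, read on both strands: the E-box CANNTG, the hypoxia element core ACGTG, the AP-1 motif TGANTCA and the CArG box of serum response elements. An E-box that reads as the hypoxia core would count under both. The choice of the ITGB5 window by its content means that the content cannot be set against other windows, and the other 2 windows of the gene held no match.
ITGA5: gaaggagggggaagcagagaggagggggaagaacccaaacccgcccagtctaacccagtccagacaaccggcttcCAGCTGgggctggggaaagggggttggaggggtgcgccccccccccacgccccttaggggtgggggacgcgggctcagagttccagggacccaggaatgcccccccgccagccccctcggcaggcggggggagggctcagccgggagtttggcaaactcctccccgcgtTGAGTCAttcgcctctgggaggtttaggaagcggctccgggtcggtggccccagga
ITGB5: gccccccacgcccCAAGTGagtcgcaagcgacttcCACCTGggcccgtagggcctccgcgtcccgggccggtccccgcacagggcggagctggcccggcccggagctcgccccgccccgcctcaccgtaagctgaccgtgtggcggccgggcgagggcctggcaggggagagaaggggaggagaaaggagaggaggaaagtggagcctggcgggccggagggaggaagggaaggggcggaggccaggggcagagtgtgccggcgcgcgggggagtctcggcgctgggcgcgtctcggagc

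The ITGA5 window held 1 E-box and 1 AP-1 match that started 6 bases before the start site, and the ITGB5 window held 2 E-box matches. As background for the ITGA5 window, 68.7% of all 35116 promoter windows of the same length held an E-box, 21.4% the hypoxia core, 7.7% the AP-1 motif and 1.3% the CArG box. The GC content was 69.3% for ITGA5 and 49.7%, 59.7% and 75.7% (the one shown) for the 3 windows of ITGB5, and the median of all windows was 58.7%. These matches describe the letters of the windows and nothing was measured at them.

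In gene order, the 20 measured neighbours of ITGA5 (10 on each side) had a median difference of −0.03, and 11 of them were lower in knockdown clones, 1 of these at an unadjusted p under 0.05. The 20 neighbours of ITGB5 had a median of −0.22, with 17 lower and 6 of these at an unadjusted p under 0.05. Of all genes 52.4% had a lower mean in knockdown clones, and 7.67% were lower at an unadjusted p under 0.05. None of the neighbours of either gene passed in limma, in either direction.

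The partner chains of the called chains did not pass. ITGB1, the beta chain shared by most matrix-binding integrins, read 13.32, 13.48 and 13.39 in knockdown clones, against 13.30, 13.28 and 13.29 in control clones. All 3 knockdown clones were slightly above the control clones, with a difference of 0.10 (SE 0.08, adjusted p = 0.661 in limma) and a 95% interval of −0.10 to 0.30. That interval does not reach the decrease measured for ITGA5. The other 2 of its 7 probe sets shown above background gave 0.27 and 0.10, with overlapping groups.

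ITGAV, the alpha chain that pairs with ITGB3, ITGB5, ITGB6 and ITGB8, read 11.01, 10.50 and 10.25 in knockdown clones, against 10.57, 10.53 and 10.53 in control clones. Knockdown clone 1 was high and clone 3 low, so the groups overlapped. The difference was 0.04 (SE 0.18, adjusted p = 0.944 in limma, 95% interval −0.38 to 0.46), and it was −0.17 without knockdown clone 1.

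**Figure D2:**
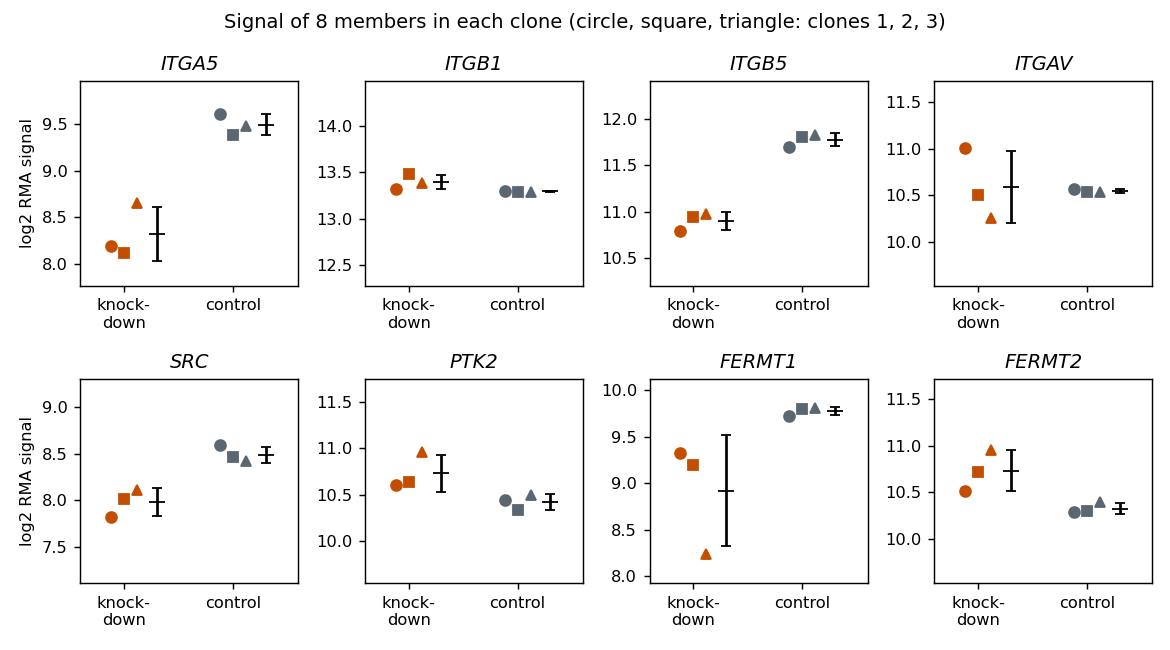
Log2 RMA signal of 8 members in each clone, with the mean and SD of the 3 clones of a group beside the points; every panel spans the same height on the log2 axis. ITGA5 and ITGB5 separate the groups, while their partners ITGB1 and ITGAV differ by 0.10 and 0.04.

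Among the other chains of fibronectin and vitronectin receptors, ITGB3, the platelet fibrinogen and vitronectin receptor chain, read 5.62, 5.69 and 5.98 in knockdown clones, against 6.03, 6.01 and 5.86 in control clones. Clone 3 lay among the control clones, and the difference was −0.21 (SE 0.12, adjusted p = 0.499). ITGA8, an alpha chain for fibronectin and nephronectin, read 5.76, 5.67 and 5.60 in knockdown clones, against 5.64, 5.90 and 6.07 in control clones, so the groups overlapped (−0.19, SE 0.12, adjusted p = 0.552 in limma). ITGA4, which binds fibronectin and VCAM1 on leukocytes, differed by −0.14 and ITGB8, which with ITGAV binds latent TGF-beta, by −0.17. None of these 4 was shown above background. For ITGB8 the brightest was the only 1 of 5 probe sets with a lower mean in knockdown clones. The others, also not shown above background, gave 0.24 to 0.26, with every knockdown clone above the control clones.

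No chain of the laminin receptors passed. ITGB4, the partner of ITGA6 in hemidesmosomes, gave the widest spread of any member. It read 9.18, 8.58 and 7.21 in knockdown clones 1, 2 and 3, against 9.15, 9.06 and 9.15 in control clones. Clone 1 was at the control level, clone 2 was below it and clone 3 had 26.6% of the control signal. The mean was 8.32 ± 1.01 in knockdown and 9.12 ± 0.05 in control clones (SD, n = 3 each), a difference of −0.80 (SE 0.43, adjusted p = 0.473 in limma) whose 95% interval of −1.81 to 0.21 includes 0. It was −0.24 without knockdown clone 3, −1.23 without knockdown clone 1 and −1.70 with the RNA quality index in the fit, and passed in none of these (adjusted p = 0.476, 0.141 and 0.367). The other 4 of the 5 probe sets of ITGB4 were not shown above background.

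ITGA6, its alpha partner, read 11.12, 10.92 and 10.60 in knockdown clones, against 11.18, 11.07 and 11.13 in control clones. The order of the knockdown clones was that of ITGB4, over a smaller range, and clone 1 lay among the control clones (difference −0.25, SE 0.14, adjusted p = 0.488). The dimmer probe set of ITGA6, also above background, did not repeat this order. It read 8.73, 9.28 and 8.53 in knockdown clones, against 9.33, 8.87 and 9.48 in control clones. There clone 2 was highest and clone 1 lay below all control clones (−0.38, adjusted p = 0.518 in limma). ITGA3, a receptor chain for laminin-332 with ITGB1, read 9.04, 9.74 and 9.75 in knockdown clones, against 9.39, 9.39 and 9.28 in control clones, with clone 1 below and clones 2 and 3 above all control clones. ITGA7, the laminin receptor chain of muscle, differed by −0.01 and was not shown above background.

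Collagen receptor chains also did not pass. ITGA2, the alpha chain of the main collagen receptor of epithelial cells, read 11.62, 11.97 and 11.22 in knockdown clones, against 11.97, 11.89 and 11.95 in control clones. Clone 2 was at the control level and clone 3 was lowest, at 61.0% of the control signal (difference −0.33, SE 0.18, adjusted p = 0.461 in limma). ITGA10, a collagen receptor chain known from cartilage, read 6.20, 6.04 and 7.73 in knockdown clones, against 6.67, 6.65 and 6.55 in control clones. Clones 1 and 2 lay below every control clone and clone 3 far above, with 215% of the control signal, so that the mean difference was 0.03 (SE 0.40). Without knockdown clone 3 the value of ITGA10 was −0.50 and passed (adjusted p = 0.0363 in limma), in a fit that called 2.23% of all genes lower. The gene has 1 probe set, and the 2 knockdown clones left in that fit read close to the background level of 6.16. ITGA1 differed by −0.02 and ITGA11 by 0.05 (SE 0.10), and ITGA11 was not shown above background.

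The chains known mainly from leukocytes were near or below background. ITGB2, the common beta chain of leukocyte integrins, read 6.81, 6.01 and 6.84 in knockdown clones, against 6.53, 6.68 and 6.73 in control clones, with clone 2 low and clones 1 and 3 high (difference −0.09, SE 0.22). ITGB7, of gut-homing lymphocytes, and ITGA9, which binds tenascin with ITGB1, were not shown above background and differed by −0.05 and −0.03.

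The signalling kinases had differences of opposite sign, none of which passed. SRC, the tyrosine kinase that acts with FAK at adhesions, read 7.82, 8.01 and 8.11 in knockdown clones, against 8.59, 8.46 and 8.42 in control clones. The groups did not overlap, and the difference was −0.51 (SE 0.11, adjusted p = 0.0932 in limma, 95% interval −0.76 to −0.26), or 70.3% of the control signal. It passed without knockdown clone 3 (−0.58, adjusted p = 0.0284) and with array weights (−0.52, adjusted p = 0.0416), and was −0.28 with the RNA quality index in the fit (adjusted p = 0.512). The other 6 of the 7 probe sets of SRC were not shown above background, so the gene rests on 1 reading.

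PTK2, which encodes FAK, read 10.60, 10.64 and 10.96 in knockdown clones, against 10.44, 10.33 and 10.49 in control clones. Clone 3 was highest and the groups did not overlap (difference 0.31, SE 0.12, adjusted p = 0.304 in limma, 95% interval 0.03 to 0.59). Without knockdown clone 3 it was 0.20, and with the RNA quality index in the fit 0.50 (adjusted p = 0.302 and 0.372). Its second probe set gave 0.07, with knockdown clones at 8.38, 9.31 and 9.58 on both sides of control clones at 9.03, 8.89 and 9.13. PTK2B, the related kinase PYK2, differed by −0.18 and was not shown above background.

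Of the adaptors, PXN, the scaffold protein paxillin, read 9.54, 9.05 and 8.93 in knockdown clones, against 9.52, 9.51 and 9.49 in control clones. Clone 1 was at the control level and clones 2 and 3 were below it, a difference of −0.33 (SE 0.16, adjusted p = 0.401 in limma). Without knockdown clone 1 it was −0.52 and passed (adjusted p = 0.0436), and it was −0.21 without knockdown clone 3 and −0.75 with the RNA quality index in the fit, where it did not (adjusted p = 0.470 and 0.249). CRKL, an adaptor of the CRK family, read 9.86, 10.11 and 9.95 in knockdown clones, against 10.14, 10.09 and 10.27 in control clones, with clone 2 among the control clones (−0.19, SE 0.10). BCAR1, which encodes p130Cas, differed by 0.08 and ZYX, the LIM protein zyxin of mature adhesions, by −0.10.

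The kindlins, which bind beta tails beside talin, had differences of opposite sign that did not pass. FERMT1, kindlin-1 of epithelial cells, read 9.33, 9.20 and 8.24 in knockdown clones, against 9.73, 9.80 and 9.81 in control clones. All knockdown clones were low and clone 3 lowest, with 73.0%, 66.9% and 34.3% of the control signal in clones 1, 2 and 3. The difference was −0.86 (SE 0.26, adjusted p = 0.209 in limma, 95% interval −1.47 to −0.24), and 3 of its 4 probe sets gave between −0.86 and −0.61. Without clone 3 it was smaller, at −0.52, and passed (adjusted p = 0.0281). Fitted with the RNA quality index it was −1.32 (adjusted p = 0.310).

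FERMT2, the widely expressed kindlin-2, read 10.52, 10.72 and 10.96 in knockdown clones, against 10.29, 10.30 and 10.40 in control clones. The groups did not overlap and clone 3 was highest, with a difference of 0.40 (SE 0.12, adjusted p = 0.209 in limma, 95% interval 0.11 to 0.69). All 3 probe sets had a higher mean in knockdown clones, but only the brightest separated the groups. The dimmer ones gave 0.37 and 0.48 (adjusted p = 0.357 for both), each with clone 1 at 101% of the control signal. With the RNA quality index in the fit the brightest gave 0.65 (adjusted p = 0.281).

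**Figure D3:**
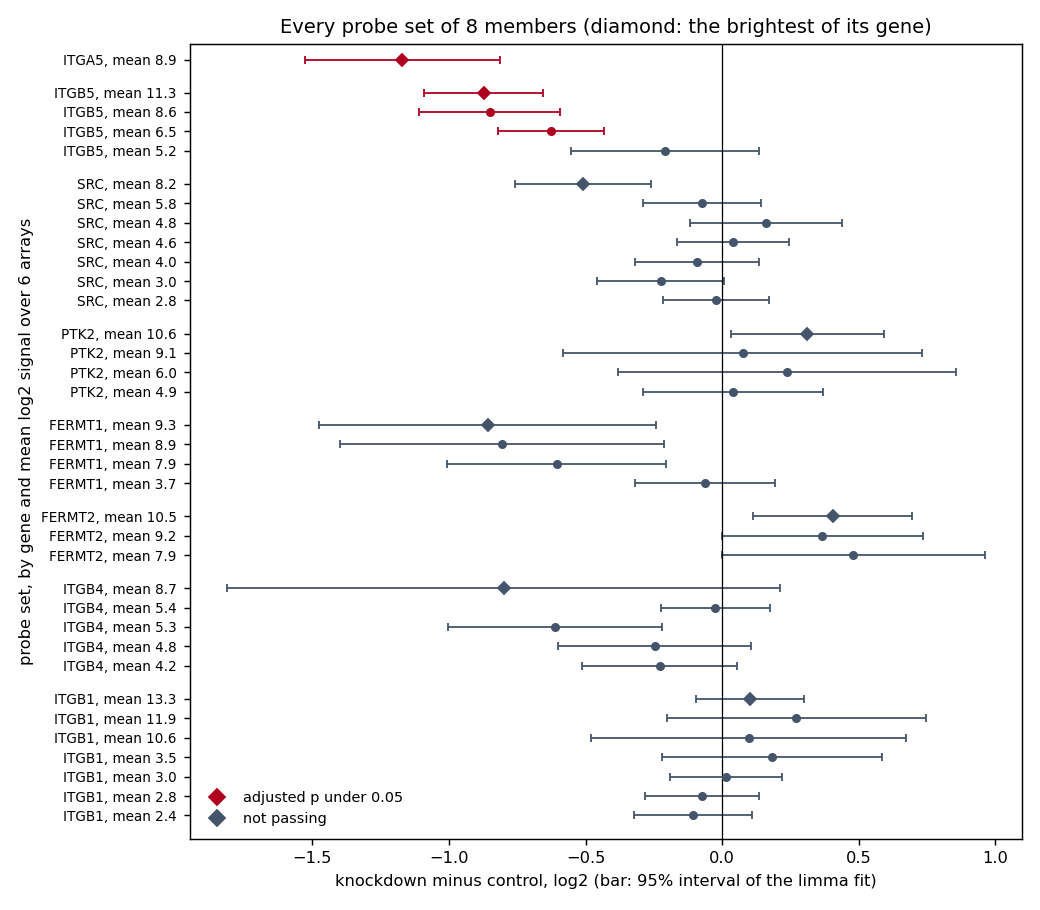
Knockdown minus control on the log2 scale, with the 95% interval of the limma fit, for every probe set of 8 members ordered by signal within each gene (red: adjusted p under 0.05). ITGB5 passes on 3 of 4 probe sets, the probe sets of FERMT1 lie below 0 and those of FERMT2 above 0, and 6 of the 7 probe sets of SRC and 4 of the 5 of ITGB4 are too dim to be shown above background.

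The other linkers to actin did not pass either. TNS1, a tensin, read 5.35, 5.18 and 5.35 in knockdown clones, against 5.52, 5.58 and 5.59 in control clones. The groups did not overlap, but the difference of −0.27 (SE 0.09, adjusted p = 0.243 in limma) was between levels not shown above background. TNS3, another tensin, read 10.52, 10.17 and 9.46 in knockdown clones, against 10.34, 10.41 and 10.44 in control clones, with clone 1 high and clone 3 at 52.4% of the control signal. The talins TLN1 and TLN2 differed by 0.08 and 0.04 and vinculin (VCL) by 0.08, with 95% intervals of −0.18 to 0.33, −0.32 to 0.39 and −0.13 to 0.30. TLN2 was not shown above background.

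In the ILK scaffold, ILK, the integrin-linked pseudokinase, read 10.08, 10.66 and 10.86 in knockdown clones, against 10.88, 10.59 and 10.64 in control clones. Clone 1 was below all control clones and the others lay among them (difference −0.17, SE 0.20, adjusted p = 0.768 in limma). The parvins, which link ILK to actin, differed by −0.06 (PARVA) and −0.02 (PARVB, not shown above background). The PARVA probe sets disagreed: the 6 of 7 shown above background gave −0.44 to 0.10. In the one at −0.44 the groups did not overlap, but it did not pass (adjusted p = 0.0873 in limma). LIMS1, which encodes PINCH1, read 3.52, 3.66 and 3.63 in knockdown clones, against 3.82, 3.96 and 4.11 in control clones. These groups did not overlap (−0.36, SE 0.10, adjusted p = 0.189 in limma), yet the probe sets annotated to LIMS1 alone were not shown above background, and those that list other LIMS genes as well were not used.

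The knockdown clones spread more widely than the control clones in 31 of 37 members, with a median SD of 0.20 in knockdown and 0.07 in control clones. This was also so in 76.7% of all genes. Clone 3 was the knockdown clone farthest from the control mean in 17 members, clone 1 in 13 and clone 2 in 7. Of the 19775 genes in all, clone 3 was farthest in 38.9%, clone 2 in 31.7% and clone 1 in 29.4%. The median difference of the members was −0.13, −0.08 and −0.02 in knockdown clones 1, 2 and 3.

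**Figure D4:**
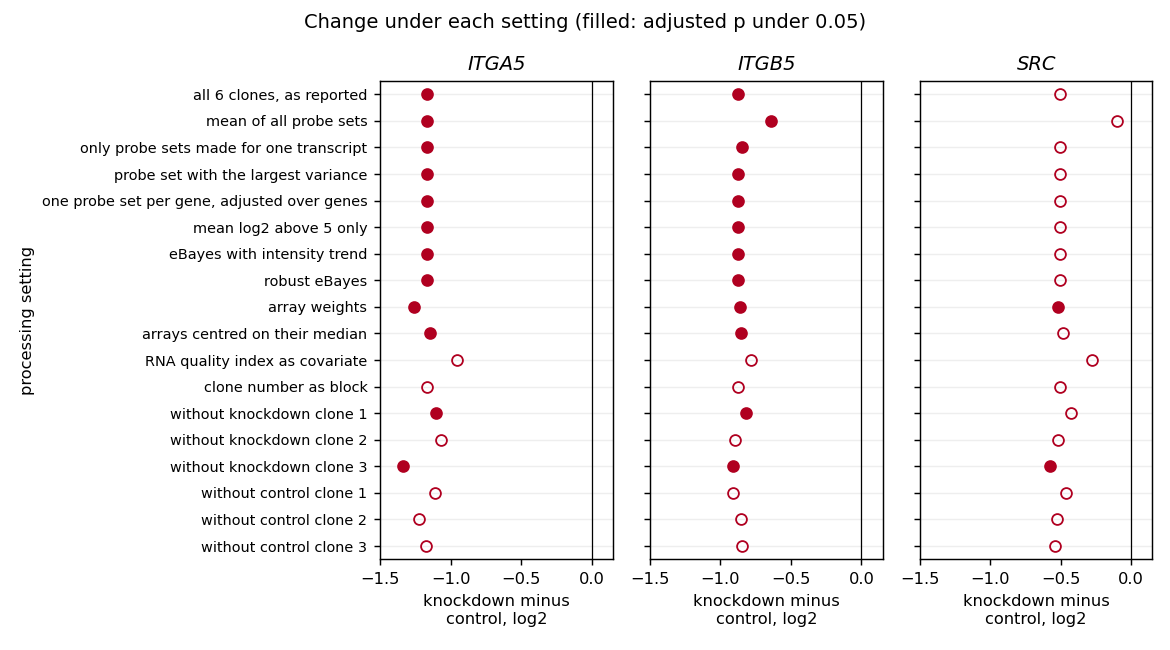
Knockdown minus control on the log2 scale for ITGA5, ITGB5 and SRC under each processing setting, filled where the adjusted p was under 0.05. The differences of ITGA5 and ITGB5 keep their sign in all 17 alternatives, and both pass in 11 of them.

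Several genes of integrin ligands, the matrix proteins that these receptors bind, fell in the same clones. Of 39 measured ligand genes 6 fell and 0 rose in limma, with 12 lower and 2 higher at an unadjusted p under 0.05. Of all genes 0.42% fell and 0.319% rose, and 7.67% and 9.11% were lower and higher at that unadjusted p. COL6A3, a collagen VI chain, differed by −1.55 (SE 0.11, adjusted p = 0.00748 in limma), and COL5A1, a fibrillar collagen chain, by −1.29 (SE 0.17, adjusted p = 0.0377). The laminin chains LAMB3, a part of laminin-332, and LAMA5 fell by 0.91 and 0.72 (adjusted p = 0.0311 and 0.0374 in limma). The other 2 that fell were COL4A2 and COL7A1. FN1, the ligand of the ITGA5 receptor and named outside the rule, read 10.64, 11.63 and 12.58 in knockdown clones, against 12.25, 12.25 and 12.32 in control clones. Knockdown clone 1 was at 32.2% and clone 3 at 123% of the control signal, and the difference was −0.66 (SE 0.42, adjusted p = 0.544 in limma). It was −0.17 without knockdown clone 1 (adjusted p = 0.775), −1.14 without knockdown clone 3 (adjusted p = 0.0468) and, fitted with the quality index, 0.44 (adjusted p = 0.781). The median difference over the ligand genes was −0.18. Without any 1 control clone, or with the RNA quality index in the fit, 0 of the 39 passed in limma, and without knockdown clone 2 there was 1. Calls were lost over the whole table in these fits. Of all genes 0.0101% to 0.0152% were called lower without a control clone, 0.00506% with the index and 0.0759% without knockdown clone 2.

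Of 72 other measured genes of adhesion sites and integrin regulation, 0 fell and 0 rose in limma. At an unadjusted p under 0.05 there were 10 lower and 6 higher, beside 7.67% and 9.11% of all genes. CIB1, a calcium-binding protein that binds integrin alpha tails, read 10.50, 10.55 and 10.54 in knockdown clones, against 11.01, 11.07 and 11.02 in control clones. The groups were well apart, and the difference of −0.50 (SE 0.08) just missed the threshold (adjusted p = 0.0519 in limma). KANK1, which binds talin at the rim of adhesions, read 8.20, 8.04 and 8.12 in knockdown clones, against 7.72, 7.66 and 7.67 in control clones, all knockdown clones being higher (0.44, SE 0.09, adjusted p = 0.0824 in limma). Its probe sets differed: the brightest one made for 1 transcript gave 0.02 (adjusted p = 0.939 in limma). The mean of all its probe sets gave 0.26 (adjusted p = 0.138). The median over this list was −0.03. Without knockdown clone 1, 4 of these genes passed lower and 2 higher, beside 1.63% and 1.94% of all genes.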

How the data were processed

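The deposited values are log2 signals, for which the submitters' processing notes name RMA and Affymetrix Expression Console 1.0. Array medians lay between 5.12 and 5.17. RMA gives all arrays the same distribution, which hides a shift common to most transcripts, and 3 arrays per group limit the precision. No label names a genome build for the probe sets. Of 54675 probe sets, 41091 had 1 gene symbol, 1801 several and 11721 none in the platform annotation, and 62 were controls. Symbols were updated by gene identifier in RefSeq (GRCh38.p14), which matched 41037.

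The 54613 probe sets that are not controls were fitted with limma 3.58.1 in R 4.3.3 (lmFit and eBayes, group as the only term, two-sided, Benjamini-Hochberg over all of them), which gave 83 genes lower and 63 higher. The members, their roles and the other lists were chosen with earlier results of these data known. Named were WASF3, the members called or at an unadjusted p under 0.05, the 2 with the smallest p in each role and the partner chains. Clone values of ITGA3, ITGA10 and TNS3 were given outside this rule. From the other lists, up to 4 called genes, or else the 2 with the smallest p, were named. Alternatives changed the probe set, filter, variance model, weights, centring, covariate or block, or left out 1 clone.

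Clone numbers were read as names only, since the labels do not pair knockdown with control clones. Deviations of same-numbered clones correlated at −0.07, −0.10 and −0.04 across probe sets, and those of differently numbered clones at −0.006 to 0.072. Deviations were taken from each group's own mean and cancel out within it, so these correlations cannot decide whether clones were handled in pairs.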

Additional observations from a re-analysis of the deposited data

How the results depend on the processing

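Under 17 alternatives ITGA5 and ITGB5 kept their direction and each passed in 11. Of 37 members, 0 passed lower with the RNA quality covariate and 0 with clone number as a replicate block, a fit in which ITGA5 and ITGB5 gave adjusted p of 0.152 and 0.146. Of all 19775 genes, 3 passed with the block and 1 with the covariate. Leaving out single clones gave 0 to 5 members lower (5 without knockdown clone 3: ITGA5, ITGB5, SRC, FERMT1 and ITGA10), where all genes gave 2.23% lower without knockdown clone 3, 1.63% without clone 1, 0.0759% without clone 2 and 0.0101% to 0.0152% without a control clone. The same fits gave a median difference of −0.16 to −0.083, and 7 to 13 members lower and 3 to 6 higher without overlap of the groups. Smaller groups separate more easily, and the share of all genes without overlap in these fits is not given here, so these counts say nothing particular about the members. With the mean of all probe sets 9 members were lower and 1 was higher without overlap, again without the share of all genes. WASF3 passed with array weights (−1.16, adjusted p = 0.0359) and without knockdown clone 3 (−0.99, adjusted p = 0.0175), and gave −1.63 to −0.99 over the fits without 1 clone. Other adhesion genes called lower numbered 2 with the mean of all probe sets, 1 with adjustment over genes, 1 with levels above 5 only and 2 with array weights. In the same order, 0.647%, 0.582%, 0.751% and 1.49% of all genes were called lower. Without 1 clone, 0 to 4 were called lower and 0 to 2 higher. The 2 higher came without knockdown clone 1 and again without clone 3, where 1.94% and 3.96% of all genes were called higher. Ligand genes called lower numbered 0 with the covariate, 0 with the replicate block and 0 to 9 without 1 clone, and those called higher 0 to 1. Uncalled members changed sign as follows, and the cause was not tested. ILK gave 0.47 with the covariate and −0.33 to 0.058 without 1 clone (above 0 without knockdown clone 1). ITGAV gave −0.42 and −0.17 to 0.21 (below 0 without knockdown clone 1). ITGA11 gave −0.013 with the mean of all probe sets, −0.15 with the most variable one, −0.076 with the covariate and −0.0175 to 0.12 without 1 clone (below 0 without control clone 1). ITGB1 (−0.074) and ITGB3 (0.012) changed with probe sets made for 1 transcript, which for both are not shown above background. As for ITGB2, it gave −0.24 to 0.18 without 1 clone and was above 0 without knockdown clone 2.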
